A study of Mus musculus with 14 samples.

Results

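The change in miRNA expression from demyelinated to remyelinating tissue was examined in the corpus callosum, the white matter tract that joins the cerebral hemispheres, by setting 2 arrays of mice 2 weeks after cuprizone (2wr) against 4 arrays of mice at the end of cuprizone feeding (4wd). These 6 arrays were chosen by their titles from 14 in all, and all 566 mouse miRNAs on the array were considered, of which 225 passed the filter on detection. Cuprizone is a copper chelator that kills oligodendrocytes, the myelin-forming cells, when mixed into the chow. Male mice received 0.2 to 0.4% cuprizone for 4 weeks. The 4wd mice were taken at that point, and the 2wr mice were returned to regular diet for 2 weeks first. The other arrays were 4 of control mice on normal diet and 4 of mice with only 2 days of regular diet behind them after cuprizone (2dr). According to the methods the mice were 7 to 8 weeks old at the start, and their strain is not given for the array experiment. The labels name no genetic change in any group. The methods describe 3 to 4 mice per group, whereas 2 arrays stand for 2wr. The p-values from limma rest on the spread between arrays within all 4 groups, control and 2dr included.

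miRNAs are short RNAs that guide a silencing complex to messenger RNAs, mainly by pairing of the seed, bases 2 to 8 of the mature strand, so that miRNAs with 1 seed share many targets. Oligodendrocyte differentiation depends on miRNAs, among which miR-219 and miR-338 are the best known, while miR-146a and miR-155 are known as regulators of inflammatory signaling in microglia and macrophages. After cuprizone is withdrawn, oligodendrocyte precursor cells mature and form new myelin. The cells of the dissected tissue were not separated, so that fewer cells of a type and less miRNA per cell cannot be told apart.

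The mature sequences of the miRNAs on which the description rests are shown 5′ to 3′, from RefSeq (GRCm38.p6), with the seed in capitals. Names on the array are older than those of RefSeq, and 34 of the 36 names looked up were matched. The first 6 share 1 seed, and their 2wr means were all above their 4wd means.
miR-322: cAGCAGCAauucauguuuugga
miR-16: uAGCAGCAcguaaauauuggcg
miR-15a: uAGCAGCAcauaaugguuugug
miR-15b: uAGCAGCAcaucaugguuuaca
miR-195: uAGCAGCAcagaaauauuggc
miR-497: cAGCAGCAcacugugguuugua
The next 5 are further miRNAs with higher levels at 2wr, including miR-193 (miR-193a-3p in RefSeq) and miR-146a, which the study followed.
miR-181b: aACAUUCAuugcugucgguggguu
miR-338-3p: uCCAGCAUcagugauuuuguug
miR-365: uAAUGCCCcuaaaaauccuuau
miR-193: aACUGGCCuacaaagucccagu
miR-146a: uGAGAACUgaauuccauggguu
The last 4 had lower levels at 2wr, and the first pair of them share a seed.
miR-7a: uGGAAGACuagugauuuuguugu
miR-7b: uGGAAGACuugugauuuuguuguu
miR-148b: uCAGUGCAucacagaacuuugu
miR-433: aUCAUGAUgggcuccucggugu

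The arrays at 4wd detected 210 to 240 mouse miRNAs, and those at 2wr detected 198 and 283. The summed signal ranged from 50187 to 90452 at 4wd and was 72411 and 129989 at 2wr, so that replicate 2 of 2wr was the brightest of the 6 arrays and detected the most miRNAs. The arrays lay on 2 slides, and each slide held 1 array of 2wr and 2 arrays of 4wd. Over the 170 miRNAs detected on all 14 arrays, replicate 1 of 2wr differed from replicate 1 of 4wd on the same slide by a median of 0.197 on the log2 scale and from replicate 2 by 0.307. Replicate 2 of 2wr differed from the 4wd arrays of its slide by 0.493 and 0.443. The 4wd arrays within a slide differed by 0.265 and 0.279. The 2 arrays of 2wr differed from each other by 0.458, while 4wd arrays on different slides differed by 0.492 to 0.506. Values within each slide are given beside the main results.

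All levels below are normalized signals, as log2 relative to the 75th percentile of the array, and differences are 2wr minus 4wd on that scale. Of the 225 miRNAs tested, limma called 0 (0%), a call needing an adjusted p (Benjamini-Hochberg) under 0.05 together with a 2-fold difference, and the lowest adjusted p was 0.886. The unadjusted p from limma was under 0.05 for 11 miRNAs (4.89%) and for 18 with slide as a block. By the methods' test, Tukey's p was under 0.05 for 2. That p is already adjusted over the pairs of groups, so that this count is not like the others. The differences ranged from -1.34 to 2.06, with a median of -0.11, and 88 were higher and 137 lower at 2wr. This split depended on the scaling, being 136 against 89 with the percentile over all mouse miRNAs, 141 against 84 in the authors' values, 114 against 111 after quantile normalization, 190 against 35 without scaling and 38 against 187 with normexp background correction. The median size of a difference was 0.28, below the median standard error of 0.39. The 2 groups did not overlap for 32 miRNAs (14.2%), with 2wr higher for 11 (4.89%) and lower for 21 (9.33%). The direction was the same within both slides for 124 miRNAs and opposite for 101. Among the 187 miRNAs detected on all 6 arrays, none was at least 2-fold higher at 2wr and 4 were at least 2-fold lower, namely miR-7a, miR-7b, miR-690 and miR-153. The last pair was named after their values had been seen, with differences of -1.34 for miR-690 and -1.07 for miR-153, and their groups overlapped.

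**Figure D1:**
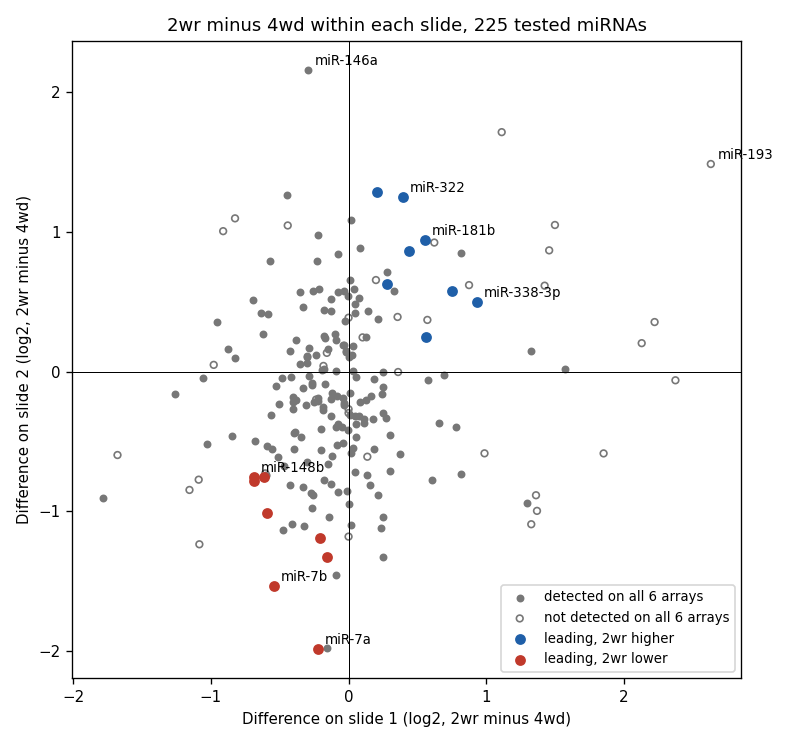
Difference between 2wr and 4wd (log2) within slide 1 on the horizontal axis and within slide 2 on the vertical axis, with 1 point for each of the 225 miRNAs tested. Filled points were detected on all 6 arrays, and the leading miRNAs are in blue and red. The cloud shows little order, with 124 miRNAs in the quadrants of 1 sign and a Pearson correlation of 0.19 across miRNAs, which are not independent replicates.

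The leading miRNAs were those detected on all 6 arrays whose groups did not overlap and whose difference had 1 direction within both slides. This was met by 9 higher and 18 lower miRNAs, and the 8 largest each way are described. The condition on the slides removed none, since groups that do not overlap must differ in 1 direction within both slides. The shared direction of the leading miRNAs within the slides was therefore fixed by the choice. None was called by limma. All 16 had an exact two-sided permutation p = 0.133, the smallest that 2 arrays against 4 allow, so that this test could not pass a threshold of 0.05. The choice used the same 6 arrays, and the values are a description.

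Higher at 2wr were miR-322, miR-16, miR-181b, miR-338-3p, miR-365, miR-100, miR-27b and miR-532-5p, by 0.41 to 0.83, or 1.32-fold to 1.77-fold. miR-322, the mouse counterpart of human miR-424, was at -4.48, -4.42, -4.27 and -4.61 on the 4wd arrays and at -4.05 and -3.19 on the 2wr arrays. Both 2wr arrays lay above every 4wd array, replicate 2 by more than replicate 1. The difference was 0.83 (standard error 0.34, 95% interval 0.08 to 1.57, adjusted p = 0.886 from limma), with 0.40 within slide 1 and 1.25 within slide 2. The sign turned to -0.62 with normexp, which moved the median of all tested miRNAs to -0.73. miR-16, which targets cyclins and the survival factor Bcl2, was at 0.42, 0.71, 0.01 and -0.35 at 4wd and at 0.77 and 1.12 at 2wr. Its lower 2wr array stood just above the highest 4wd array, and the difference of 0.75 (standard error 0.36) was 0.21 within slide 1 and 1.29 within slide 2.

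The other miRNAs with the seed of miR-322 and miR-16 were less separated. Their differences were 0.49 for miR-15a, 0.41 for miR-195, 0.27 for miR-15b and 0.11 for miR-497, and their groups overlapped. The median of the 6 was 0.45, against -0.11 for all tested miRNAs. It stayed positive under the 5 scalings, between 0.45 and 1.00, and was -0.09 with normexp. Within slide 1 miR-195 and miR-497 were lower at 2wr, by -0.45 and -0.57, and miR-15b and miR-15a differed little, at -0.005 and 0.08. This seed group was picked after the values had been seen.

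miR-338-3p, which is abundant in oligodendrocytes and promotes their maturation, was at 0.80, 0.02, 0.71 and 0.65 at 4wd and at 1.34 and 1.18 at 2wr. Neither 2wr array reached down to the 4wd arrays, and 2wr was higher by 0.93 within slide 1 and 0.50 within slide 2. The difference was 0.72 (standard error 0.60, 95% interval -0.57 to 2.00, adjusted p = 0.962 from limma), an interval that includes no difference and a 4-fold one. Control arrays ranged from 0.61 to 2.89. Both 2wr arrays lay inside this range, and so did the 4wd arrays at 0.80, 0.71 and 0.65.

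miR-181b, known to dampen NF-κB signaling, was at -1.42, -1.55, -1.20 and -1.30 at 4wd and at -0.93 and -0.31 at 2wr. The 4wd arrays were close together and both 2wr arrays stood above them. The difference was 0.75 (standard error 0.34, 95% interval 0.00 to 1.49, adjusted p = 0.886 from limma), with 0.55 within slide 1 and 0.94 within slide 2. The other members of its family differed less: the 4 tested members had a median of 0.13 and ranged from -0.15 to 0.75, with 3 higher and 1 lower, and the median was -0.25 with normexp and -0.40 without replicate 2 of 2wr.

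miR-193 and miR-365 lie 14.4 kb apart in GRCm38.p6 at 1 of the 2 genes for miR-365. miR-365 was at -1.59, -1.74, -2.14 and -1.84 at 4wd and at -0.91 and -1.41 at 2wr, a difference of 0.67 (standard error 0.32) that was 0.75 within slide 1 and 0.58 within slide 2. miR-193 had the largest difference of all tested miRNAs, 2.06 or 4.17-fold, at levels near the detection limit. It was at -7.61, -6.13, -5.48 and -5.45 at 4wd, where 1 of the 4 arrays did not detect it, and at -4.24 and -3.98 at 2wr. Both 2wr arrays lay above every 4wd array and within the control range of -4.37 to -3.00. The standard error was 1.1 and the 95% interval -0.33 to 4.45 (adjusted p = 0.934 from limma), and the difference was 2.63 within slide 1 and 1.49 within slide 2. With the higher floor the difference was 1.67. miR-146a, miR-193 and miR-181b, which the study picked on these arrays and also measured by qPCR, were all 3 higher at 2wr. Since they were picked on these arrays, the array values are not independent evidence of their direction. With normexp the signs of both turned, to -0.72 for miR-193 and -0.03 for miR-365.

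Lower at 2wr were miR-7a, miR-7b, miR-300*, miR-433, miR-335-5p, miR-148b, miR-341 and miR-689, by -1.10 to -0.68. For miR-689 the standard error was 0.68 and the 95% interval -2.14 to 0.78, and its control arrays ranged from -3.64 to -1.55. miR-7a and miR-7b, which are enriched in neurons and endocrine cells and target alpha-synuclein, had the largest differences among the leading miRNAs. miR-7a was at -1.48, -1.29, -0.55 and -0.73 at 4wd and at -1.61 and -2.63 at 2wr. The lower array was replicate 2 of 2wr, while replicate 1 stood just under the lowest 4wd array. The difference was -1.10 (standard error 0.46, 95% interval -2.09 to -0.12, adjusted p = 0.886 from limma), with -0.22 within slide 1 and -1.99 within slide 2. miR-7b, with the same seed, was at -2.45, -1.87, -1.73 and -2.12 at 4wd and at -2.70 and -3.46 at 2wr, a difference of -1.04 (standard error 0.41) that was -0.54 within slide 1 and -1.54 within slide 2. Cross-hybridization between these 2 miRNAs was not tested. The mean at 2wr, -2.12 for miR-7a, was also below the control mean of -1.63 and close to the 2dr mean of -2.02.

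miR-148b, whose family targets DNA methyltransferases, had the lowest unadjusted p of all tested miRNAs. It was at -2.36, -2.82, -2.86 and -2.42 at 4wd and at -3.27 and -3.39 at 2wr. Both 2wr arrays lay below all 4wd arrays. The difference from the mean of the 4wd arrays on the same slide was -0.68 within slide 1 and -0.75 within slide 2. The difference was -0.72 (standard error 0.24, 95% interval -1.23 to -0.20, adjusted p = 0.886 from limma). The other miRNAs with its seed had smaller differences, and the median of the 3 was -0.32, turning to 0.24 without scaling. miR-335-5p, encoded in an intron of the imprinted gene Mest, was at -3.66, -3.78, -2.84 and -3.27 at 4wd and at -4.41 and -3.84 at 2wr, with a difference of -0.74 (standard error 0.38) that was -0.69 within slide 1 and -0.78 within slide 2.

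**Figure D2:**
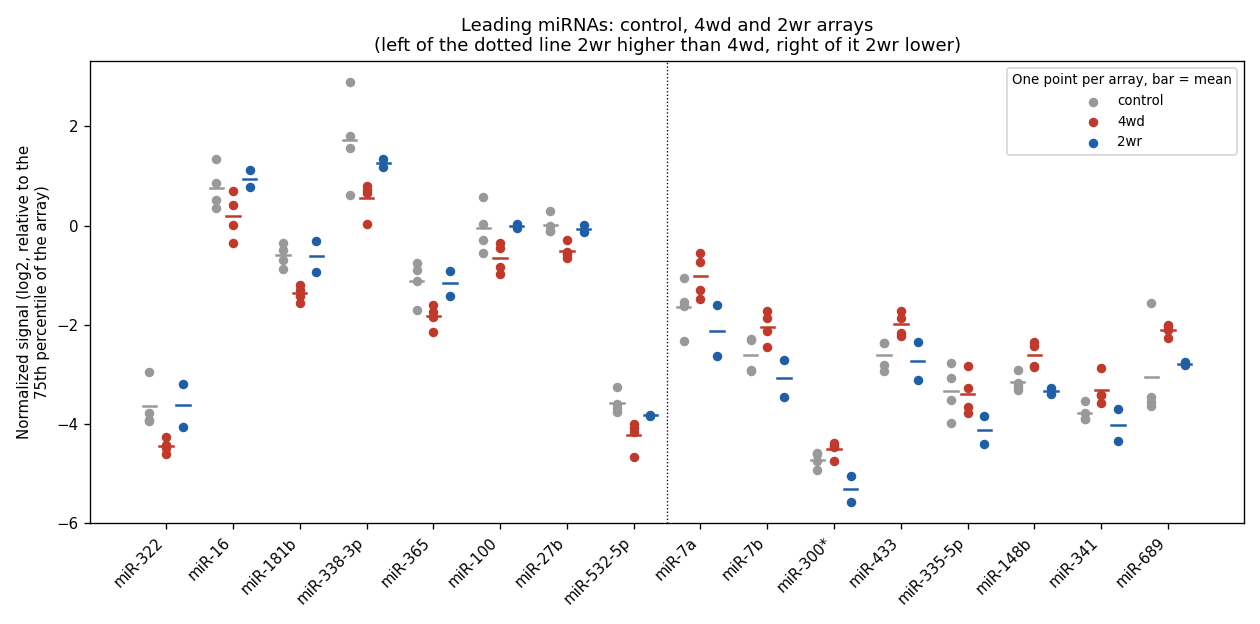
Normalized signal (log2 relative to the 75th percentile of the array) of the 16 leading miRNAs, with 1 point per array of control (grey), 4wd (red) and 2wr (blue) and a bar at the mean. Left of the dotted line both 2wr points lie above all 4 red points, and right of it below them, an order that the choice of these miRNAs fixed. The differences between the means on the left run from 0.41 for miR-532-5p to 0.83 for miR-322.

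Of the 8 leading lower miRNAs, miR-300*, miR-433 and miR-341 are encoded in the imprinted Dlk1-Dio3 region, a maternally expressed cluster of brain miRNAs. This region was looked at after these values had been seen, and no test was made. miR-433 was at -2.22, -2.17, -1.72 and -1.86 at 4wd and at -2.35 and -3.11 at 2wr, a difference of -0.74 (standard error 0.29) that was -0.16 within slide 1 and -1.32 within slide 2. miR-341, encoded 19.7 kb away, had one of -0.70 (standard error 0.31), which was -0.21 and -1.19 within the slides. The region was taken as 54 hairpin genes linked by gaps of at most 100 kb, not all of which were matched to a miRNA on the array. Of the 70 array miRNAs matched, 44 were tested, and 37 of these were lower and 7 higher at 2wr, with a range of -0.80 to 0.24. Among the 181 other tested miRNAs, 100 were lower. The median was -0.26 in the region and -0.07 outside it. Of the 11 miRNAs with an unadjusted p under 0.05 from limma, 6 lay in the region. They were miR-300*, miR-433 and miR-341, which led to the choice of the region, and miR-382 at -0.56, miR-410 at -0.62 and miR-485 at -0.71. The counts and medians of the region include the miRNAs that led to its choice. The slides differed: within slide 1, 29 of the 44 were lower with a median of -0.06, and within slide 2, 40 were lower with a median of -0.49. Without replicate 2 of 2wr the median of the region stood 0.02 above that of all tested miRNAs. Without scaling the sign of its median turned to 0.30, while that of all tested miRNAs was 0.44.

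**Figure D3:**
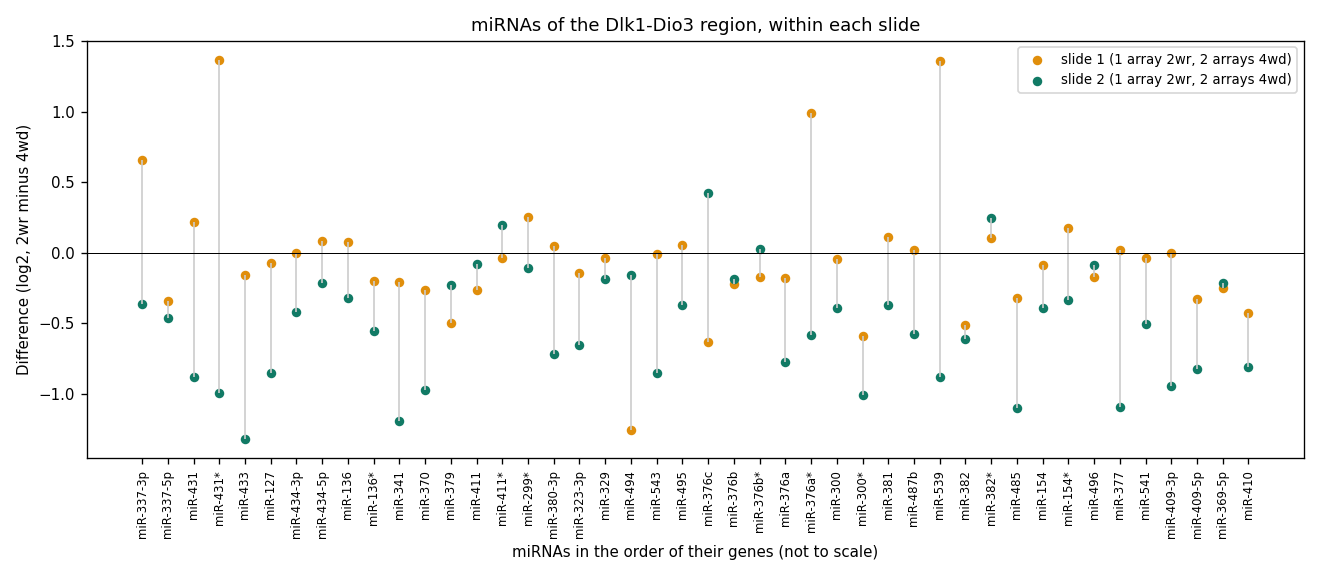
Difference between 2wr and 4wd (log2) within slide 1 (orange) and slide 2 (green) for the 44 tested miRNAs of the Dlk1-Dio3 region, in the order of their genes. Most green points lie below 0, 40 of 44, whereas the orange points are spread around a median of -0.06.

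Lists of miRNAs known from particular cells or families were described by their counts, and none of their members was called. Of the 7 oligodendrocyte miRNAs on the array 6 were tested, and 5 were higher and 1 lower at 2wr. The median was 0.52, against -0.11 for all tested miRNAs, and it was 0.81 within slide 1 and 0.55 within slide 2. It ranged from 0.49 to 1.08 over the 5 scalings and was -0.13 with normexp. Without replicate 2 of 2wr it was 0.18, and over the 4 members detected on all 14 arrays it was 0.26. miR-338-3p was the member whose groups did not overlap, and its passenger strand, miR-338-5p, was detected on 3 of the 6 arrays and stood at the floor on 2 of the 4wd arrays, so that its difference of 1.41 depends on the floor and was 0.76 with the higher one. miR-219, the other classical oligodendrocyte miRNA, was at -0.17, -1.23, -0.12 and -0.51 at 4wd and at -0.01 and -0.34 at 2wr. Its groups overlapped, the difference of 0.33 (standard error 0.70) was 0.69 within slide 1 and -0.03 within slide 2, and the 95% interval from -1.19 to 1.85 includes both directions. miR-138, which is expressed early in oligodendrocyte differentiation, had a difference of -0.31. Its passenger strand miR-138*, not detected on 1 of the 4wd arrays, had one of 1.02, or 0.70 with the higher floor, and both had overlapping groups.

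All 8 tested of the 10 myeloid miRNAs were above 4wd at 2wr, with a median of 0.22, but the slides differed. The median was -0.11 within slide 1 and 0.94 within slide 2, and with normexp it was -0.69. Without replicate 2 of 2wr it stood at -0.05 relative to all tested miRNAs, and 6 of the 8 members turned to the other direction, namely miR-146b, miR-155, miR-142-3p, miR-342-3p, miR-342-5p and miR-150. miR-146a, which restrains signaling through Traf6 and Irak1, was at -2.65, -1.81, -2.95 and -3.44 at 4wd and at -2.53 and -1.03 at 2wr. Replicate 1 of 2wr lay inside the range of the 4wd arrays and replicate 2 above it, so that the difference of 0.93 (standard error 0.60, 95% interval -0.37 to 2.23, adjusted p = 0.946 from limma) was -0.30 within slide 1 and 2.16 within slide 2. Its exact permutation p was 0.267. miR-146b, with the same seed, had a difference of 0.38 (standard error 0.36). miR-223, typical of granulocytes and monocytes, was detected on 0 of 4 arrays at 4wd and on 1 of 2 at 2wr, so that its difference of 1.28 (adjusted p = 0.934 from limma) rests on signals not called detected, and it was 0.53 with the higher floor. miR-155 was detected on 1 of 4 arrays at 4wd and 1 of 2 at 2wr, with a difference of 0.30. miR-142-3p, found in blood-derived cells, was detected on 4 of 4 and 1 of 2 arrays, with a difference of 0.14 that was -0.82 within slide 1 and 1.1 within slide 2. miR-342-3p, which is expressed in blood-derived cells, was alike in both groups, with 0.26 ± 0.15 (SD, n = 4) at 4wd and 0.27 ± 0.07 (SD, n = 2) at 2wr. Of the red blood cell miRNAs, 1 was higher and 1 lower, and miR-451 had a difference of 0.50 (standard error 0.38), with overlapping groups, and its part in the myeloid differences was not tested.

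Of 5 gliosis miRNAs 4 were lower at 2wr, with a median of -0.30 that turned to 0.26 without scaling and was -0.68 within slide 1 and -0.05 within slide 2. miR-21, which is induced in reactive astrocytes, had a difference of -0.30 (standard error 0.44), with -0.95 within slide 1 and 0.36 within slide 2. miR-34a, a target of p53, was at -0.55 (standard error 0.39), with -1.06 within slide 1 and -0.05 within slide 2, and miR-222 at -0.59 (standard error 0.72). The 10 neuronal miRNAs, 8 lower and 2 higher, had a median of -0.13, near that of all tested miRNAs, and 0.42 without scaling. It was 0.09 under normexp, in the authors' values and when all mouse miRNAs set the percentile. miR-124, an abundant neuronal miRNA, had a difference of -0.34 (standard error 0.35), and miR-128 one of 0.38 (standard error 0.53) that was -0.22 within slide 1 and 0.98 within slide 2. The vessel list had 2 tested members, both lower, with a median of -0.26. For the same 2 members it was 0.29 without scaling and 0.44 without replicate 1 of 2wr. The list of the miR-17 cluster and its relatives had a median of 0.14 over 6, with 4 higher, and -0.51 with normexp.

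The let-7, miR-29 and miR-30 families had medians slightly below that of all tested miRNAs, which turned positive without scaling (0.34, 0.26 and 0.33). Of the let-7 family 8 of 9 were lower, with a median of -0.22. let-7e was the member without overlap, at 2.31, 1.91, 1.62 and 1.82 at 4wd and at 1.55 and 1.16 at 2wr, a difference of -0.56 (standard error 0.26) that was alike within the slides. All 3 of the miR-29 family were lower, with a median of -0.29, and miR-29b, which targets collagens, differed by -0.57 (standard error 0.36) without overlap. Of the miR-30 family 4 of 5 were lower, with a median of -0.22. The let-7 and miR-29 medians turned positive also with normexp, at 0.19 and 0.18, and the let-7 median with quantile normalization, at 0.07, and in the authors' values, at 0.005. The miR-30 median was 0.32 without replicate 1 of 2wr, 0.05 without replicate 3 of 4wd and 0.17 with the replicate block.

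**Figure D4:**
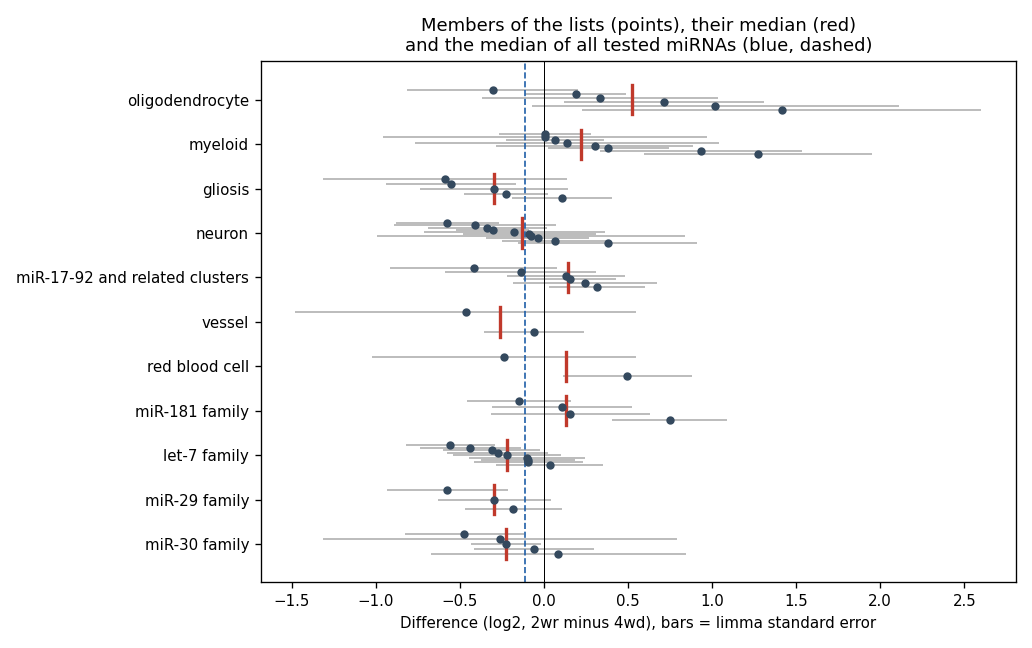
Difference between 2wr and 4wd (log2) of each tested list member (points, with limma's standard error as bars), the median of each list (red) and the median of all tested miRNAs (blue, dashed, -0.11). The 3 miRNAs that the study picked are not drawn as a list. The oligodendrocyte median lies at 0.52, while its members range from -0.31 to 1.41, the highest being miR-338-5p, which depends on the floor.

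miR-592, like miR-193, had groups apart and an over 2-fold difference but was not detected on all 6 arrays. It was at -5.34, -4.33, -4.55 and -4.50 at 4wd and at -5.92 and -5.76 at 2wr, where 1 of 2 arrays detected it. The difference was -1.16 (standard error 0.56), and it was -1.08 within slide 1 and -1.23 within slide 2. This miRNA was named after its values had been seen. No miRNA was detected on every array of 1 of the 2 groups and on none of the other.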

How the data were processed

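Total RNA of the corpus callosum (100 ng) was labeled with Cy3 and hybridized to single-colour Agilent mouse miRNA arrays designed on mm9. The deposited scanner output gives linear signal intensity, from which the authors' image software (Agilent Feature Extraction 10.5.1.1 per the file headers and the submitters' processing notes) took off the background, added up each miRNA's probes and judged detection. It was not normalized between arrays. The processed log2 table that the authors deposited served as an alternative. On replicate 1 of 4wd, 368 of 560 matched miRNAs lay within 0.01 of the scanner-derived value, and on the other 5 arrays 559 or 560.

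The total signal was divided by the array's 75th percentile over the 170 miRNAs detected on all 14 arrays, raised to a floor of 0.00176 (-9.15 on the log2 scale) and taken to log2. A miRNA was tested if at least 1 of the 4 groups detected it throughout, which 225 of 566 met, while 250 were detected on no array. limma 3.58.1 in R 4.3.3 was fitted to all 14 arrays in 4 groups, with Benjamini-Hochberg adjustment over the 225 and the 2-fold minimum. The fit was tested on simulated data. No spot was saturated, and the number of arrays limits the precision. Same-numbered arrays correlated in their deviations at 0.74 on 1 slide and -0.46 across slides. As 2wr has 2 arrays, their deviations mirror each other, and these values cannot show whether the numbers pair the mice. The numbers were treated as names only.

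The miRNAs and lists were chosen with earlier results of these data known. The rule for named miRNAs was every call, the 8 leading miRNAs each way, every tested list member and miRNAs detected in only 1 group. The rule covers or the text names 85 tested miRNAs, of which 49 are given by name. The other 36, all list members, are given by counts and ranges, and this choice was made after their values had been seen; it left out many that lie near 0 and turn sign between settings. The alternatives were spot means, normexp background correction (offset 50, on the median signal, since the files lack the mean), other scalings, filters and floors, slide and replicate blocks, other models, the methods' test (ANOVA with Tukey's comparison), no fold minimum and the omission of each array.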

Additional observations from a re-analysis of the deposited data

Results flagged for a closer look

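Each of the 85 tested miRNAs covered by the rule or named was checked for 1 array far from the other 3 of the 4wd group with Dixon's test. About 1 in 20 such groups is expected to be found without cause. The check found 2. For miR-129-5p, a neuronal miRNA, 1 of the 4wd arrays was at -1.17 while the others were close together, and the difference between 2wr and 4wd was -0.57. For miR-92a, of the miR-17 cluster, 1 of the 4wd arrays was at 0.0175, and the difference was -0.14.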

How the results depend on the processing

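limma called 0 miRNAs between 2wr and 4wd under every alternative that kept all arrays and 0 to 1 when each array was left out in turn. The single call came without replicate 2 of 2wr and was miR-469, which 1 array of 2wr alone lifted above the floor and which was tested otherwise only without the filter, where it was not called. The replicate block also called 0, with 22 unadjusted p-values under 0.05, although it is not known that the numbers pair the arrays. The median difference of all tested miRNAs was -0.11, and it was 0.10 with the percentile over all mouse miRNAs, 0.01 with quantile normalization, 0.44 without scaling, 0.09 in the authors' values and -0.73 with normexp. Over the 85 miRNAs covered or named, the sign turned for 35 with normexp, 30 without scaling, 20 with the replicate block, 19 without replicate 2 of 2wr, 13 in the authors' values, 12 with the percentile over all mouse miRNAs, 9 with quantile normalization and 7 to 10 when any other array was left out. It turned for 0 with the mean of the spots and other floors. Other filters, slide as a block and the other models leave the difference itself unchanged, so that no sign could turn there. The cause was not tested.

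With normexp the signs of these among the 49 miRNAs turned: miR-322 to -0.62, miR-365 to -0.028, miR-532-5p to -0.75, miR-193 to -0.72, miR-146a to -0.033, miR-146b to -0.64, miR-155 to -0.93, miR-223 to -0.93, miR-142-3p to -0.72, miR-338-5p to -0.86, miR-138* to -0.78, miR-451 to -0.015, miR-15b to -0.047, miR-195 to -0.13, miR-497 to -0.32, miR-124 to 0.14 and miR-129-3p to 0.034. Those of miR-342-5p and miR-150 turned as well. Without scaling, miR-138 was at 0.25, miR-21 at 0.26, miR-34a at 0.0028, miR-124 at 0.22, miR-129-3p at 0.25 and miR-92a at 0.42. miR-92a was at 0.084 in the authors' values and at 0.079 with the percentile over all mouse miRNAs. With the replicate block, miR-128 was at -0.028, miR-138 at 0.14, miR-142-3p at -0.31, miR-15b at -0.080, miR-23a at -0.056, miR-342-3p at -0.11 and miR-497 at -0.19. When each array was left out in turn, the difference crossed 0 for 10 of the 49 miRNAs and ranged from -0.32 to 3.15 for miR-338-5p, -0.61 to 0.00063 for miR-138, -0.79 to 1.39 for miR-155, -0.88 to 1.15 for miR-142-3p, -0.17 to 0.94 for miR-146b, -0.062 to 0.062 for miR-342-3p, -0.73 to 0.14 for miR-21, -0.028 to 0.74 for miR-128, -0.11 to 0.37 for miR-497 and -0.43 to 0.16 for miR-92a.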
